A study of Homo sapiens with 4 samples.

Results

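The DNA replication machinery was described here through 46 genes, chosen by gene symbol for their place in copying the genome, out of 32673 genes in the deposited expression table. All 46 were found. RNA sequencing compared TF1-BA cells, which are imatinib-sensitive, with TF1-BAR cells, which are imatinib-resistant, with 2 libraries from each line. TF1 is a human erythroleukaemia line that depends on the cytokine GM-CSF, and both lines carry the p210 form of the BCR-ABL oncogene, introduced with a retrovirus. TF1-BAR was derived from TF1-BA by months of continuous exposure to imatinib, an inhibitor of the ABL kinase. Both lines grew with 2 ng/ml GM-CSF according to the labels, while the methods of the study state a higher concentration, and 2 μM imatinib was added to the TF1-BAR culture. The sources used here do not state whether the drug was still present when RNA was taken, so the resistant state and the drug cannot be told apart. In the labels the TF1-BAR libraries are titled as vector libraries and the TF1-BA libraries are not. The labels do not explain this title, so a vector, if present, cannot be told apart from the line either. Each condition is a single cell line, each library came from 10000000 cells, and nothing says that the libraries of a line came from separate cultures, so the p-values measure only the spread between these libraries.

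Replication starts at origins, where the origin recognition complex, CDC6 and CDT1 load the MCM2-7 helicase onto DNA before S phase. The kinases CDC7-DBF4 and CDK2 then turn the loaded helicase into the active form with CDC45 and the GINS complex. DNA polymerase alpha and its primase lay down primers, the clamp loader RFC places the ring-shaped clamp PCNA, polymerases delta and epsilon copy the strands, RPA coats single-stranded DNA, and FEN1, DNA2 and LIG1 finish the Okazaki fragments. Many of these genes are transcribed at the border of G1 and S phase by E2F transcription factors, and the set as a whole is widely read as a sign of proliferation in blood cancers.

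The E2F-type letters in the promoters of these genes are shown first, since they are a feature of the members that the choice of genes did not use. The letters TTTCCCGC, TTTCGCGC, TTTGCCGC and TTTGGCGC were searched on both strands in RefSeq promoters of GRCh38.p14, from 250 bases before the transcription start to 50 bases after it. Of the 46 members, 39 matched an entry by symbol, and 18 of these 39 (46.2%) held at least 1 match, against 3.33% of all 27305 promoters of the same length and 5.4% of the 9206 promoters of protein-coding genes tested for expression. The promoters of PCNA, which was higher in TF1-BAR cells, and of CDC6, which was lower, are printed 5′ to 3′ on the strand of the gene with the matches in capitals, from 250 bases before the start to 20 bases after it. The PCNA promoter lies at chr20:5126603-5126872 on the minus strand and the CDC6 promoter at chr17:40287629-40287898 on the plus strand.
PCNA: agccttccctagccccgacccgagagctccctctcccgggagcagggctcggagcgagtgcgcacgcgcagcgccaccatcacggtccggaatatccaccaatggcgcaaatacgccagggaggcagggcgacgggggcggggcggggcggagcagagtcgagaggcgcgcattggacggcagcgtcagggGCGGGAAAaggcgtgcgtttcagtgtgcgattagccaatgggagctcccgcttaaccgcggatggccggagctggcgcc
CDC6: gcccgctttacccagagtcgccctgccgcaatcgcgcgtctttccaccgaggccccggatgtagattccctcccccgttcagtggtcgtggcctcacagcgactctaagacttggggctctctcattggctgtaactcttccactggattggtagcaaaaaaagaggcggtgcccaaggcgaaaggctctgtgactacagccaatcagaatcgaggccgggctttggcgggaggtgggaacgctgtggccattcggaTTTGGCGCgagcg
In PCNA the match begins 59 bases before the start, and in CDC6 it begins 7 bases after it.

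The sites of further members are printed with their flanks, first for 3 members whose level differed between the lines (MCM7 with 2 sites, ORC3 and RFC3) and then for helicase genes whose level did not pass the test (MCM2, MCM3 and MCM6). The MCM7 sites lie at chr7:100101567-100101594 and chr7:100101389-100101416 on the minus strand, the ORC3 site at chr6:87590113-87590140 and the RFC3 site at chr13:33818084-33818111, both on the plus strand. The MCM2 site lies at chr3:127598405-127598432 on the plus strand, the downstream MCM3 site at chr6:52284729-52284756 and the upstream MCM6 site at chr2:135876576-135876603, both on the minus strand. All are on GRCh38.p14, and capitals mark the matches.
MCM7 upstream: agctcggaccGCGGGAAAcccggcgcct
MCM7 downstream: gggggcgacgTTTCGCGCcaatttcggt
ORC3: gcgagggcgcGCGGGAAAtcccgagtgc
RFC3: tttggagctcGCGGGAAAacttgtctct
MCM2: gaaccactTTTCGCGCGAAAcctggttg
MCM3 downstream: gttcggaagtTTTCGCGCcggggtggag
MCM6 upstream: gctttgcaTTTGGCGCGAAAtccctttc
In MCM2 and MCM6 matches on the plus and minus strands overlap and form 1 run of 12 bases. The same letters, GCGGGAAA, stood in PCNA and the upstream MCM7 site as in ORC3 and RFC3, so a member with a match could lie on either side of the comparison. By role, the match was found in 4 of 4 promoters of the MCM2-7 genes with an entry, in 1 of 6 ORC promoters, in 2 of 3 licensing factors, and in 4 of 8 polymerase and primase genes. It was also found in 3 of 7 helicase activation genes, 2 of 6 clamp and loader genes, 1 of 2 Okazaki fragment genes, 1 of 2 fork protection genes and 0 of 1 RPA gene. Of the members higher in TF1-BAR cells, 2 of 3 held it, against 3 of the 5 lower members with an entry and 13 of the 31 other members with an entry. The CCAAT box (CCAAT, both strands) stood in 56.4% of the member promoters and in 35.7% of all promoters (36.9% of those of tested protein-coding genes), and the GC box (GGGCGG) in 71.8% against 44.6%. The GC box share over the tested protein-coding genes was 70.8%, close to that of the members. The CHR letters TTTGAA, known from promoters of mitotic genes, stood in 2.56% of the member promoters, in 15.4% of all and in 9.46% of those of tested protein-coding genes. These counts describe the letters in this window and not binding.

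The libraries held 18042299 and 15465497 fragments in TF1-BA cells and 15761642 and 16074303 in TF1-BAR cells, as recovered from the deposited values. On the log2 scale the libraries of a line correlated across genes with r of 0.983 (TF1-BA) and 0.979 (TF1-BAR), and libraries of different lines with 0.946 to 0.956. All 10 markers of the TF1 parent line, among them CD34, KIT and GATA1, were expressed, with summed levels of 463 to 480 FPKM in TF1-BA and 604 to 637 FPKM in TF1-BAR cells. Of 4 T cell genes only CD3D was above a mean of 0.5 FPKM, and the 4 T cell genes summed to 19.3 and 20.8 FPKM in TF1-BA and 5.84 and 6.4 FPKM in TF1-BAR cells, with CD3E, CD3G and CD2 near 0 in all libraries. The 3 B cell genes in the table summed to 5.67 to 6.35 FPKM and then 11.7 to 12.3 FPKM, the 4 fibroblast genes stayed under 0.5 FPKM in sum, and the 4 epithelial genes summed to 41.1 to 44.2 and then 67.4 to 68.1 FPKM through KRT8 and KRT18, with EPCAM and CDH1 near 0. The part of these marker levels in the results on replication genes was not tested.

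The RNA of the replication machinery as a whole differed little between the lines, while 10 of its 46 genes differed singly, 3 higher and 7 lower in TF1-BAR cells. Levels are FPKM, in which the fragments of a gene are scaled by its length and by the depth of the library, so that levels can be compared between genes. Log2 fold changes are TF1-BAR minus TF1-BA on the log2(FPKM + 0.5) scale, which understates the change of low genes, and are tested with limma over the 15519 genes with a mean of at least 0.5 FPKM. All 46 members passed that filter, with means from 2.13 FPKM (GINS4) to 98.5 FPKM (PCNA) and between 98 and 5700 fragments per library. None passed both an adjusted p under 0.05 and a log2 fold change of 1 or more in size, against 3.05% of all genes tested that did so with a higher level and 1.69% with a lower level. At an adjusted p under 0.05 alone, the 10 members are 21.7% of the set, against 26.9% of all genes tested and 31.4% of the 10200 genes tested whose mean level lay within the range of the members. The 3 higher members compare with 16.3% of all genes called higher, and the 7 lower members with 10.5% called lower. The 2 libraries of a line lay wholly above those of the other in 16 members and wholly below in 16, against 40.9% and 28.4% of all genes.

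The median log2 fold change of the 46 members was -0.03, against 0.07 for all genes tested, and their median absolute log2 fold change was 0.13 against 0.27. The members ran from -0.60 (RPA3) to 0.54 (MCM7). The summed level of the 46 genes was 968 and 936 FPKM in TF1-BA and 964 and 995 FPKM in TF1-BAR libraries, so the sums overlapped. Scaled to equal FPKM totals per library, as TPM are, they were 3180 and 3078 against 3311 and 3440, without overlap and higher in TF1-BAR cells, so the order depends on the scaling. For 31 of the 36 members that did not pass the test, the 95% interval of the log2 fold change lay within 0.5 of 0, and over all 36 the bounds ran from -0.56 to 0.76. In bulk RNA a smaller share of cells in S phase and less RNA per cell in S phase cannot be told apart.

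**Figure D1:**
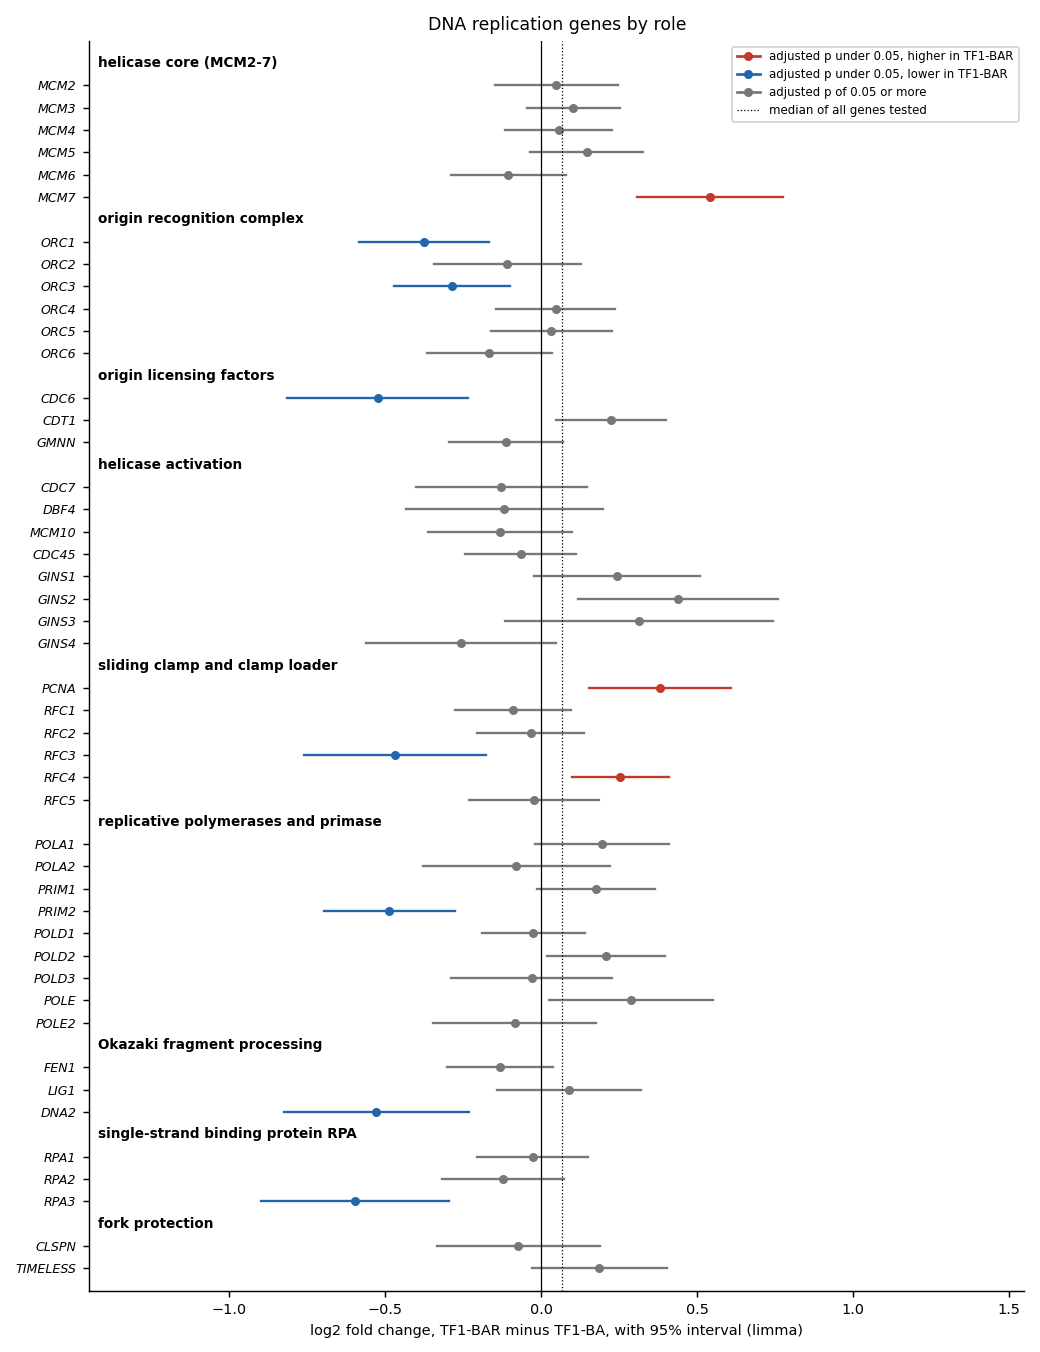
Log2 fold change (TF1-BAR minus TF1-BA, on the log2(FPKM + 0.5) scale) of the 46 replication genes, grouped by role, with 95% limma intervals from 2 libraries per line. MCM7, PCNA and RFC4 lie to the right of 0 in red and 7 genes to the left in blue, while the intervals of most others span 0 and the dotted median of all genes tested (0.07).

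The MCM2-7 helicase, the ring that unwinds DNA at the fork, was higher in TF1-BAR cells in 1 of its 6 subunits. MCM7 stood at 42.4 and 40.4 FPKM in TF1-BA and at 56.1 and 65.2 FPKM in TF1-BAR cells, and both resistant libraries lay above both sensitive ones. The log2 fold change was 0.54 ± 0.09 (SE, limma adjusted p = 0.0175), the largest rise among the members. Of the exon bases of MCM7, 7.9% are shared with AP4M1 on the opposite strand, and the library kit does not mark strand, so reads in that stretch cannot be assigned. AP4M1 itself stood at 1.16 to 1.45 FPKM in all libraries with a log2 fold change of -0.08 (limma adjusted p = 0.703).

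The other subunits did not pass the test. MCM2 was at 26.8 and 25.7 FPKM and then 28.5 and 25.9 FPKM, with overlapping libraries and a log2 fold change of 0.05 (95% interval -0.15 to 0.25). Other annotated genes share 23.6% of the exon bases of MCM2. MCM3, the most abundant subunit at 82.2 to 90.9 FPKM, had a log2 fold change of 0.10, and MCM4 and MCM5 had 0.06 and 0.15. Both resistant libraries lay above both sensitive ones for MCM3 and MCM5 and below them for MCM6, while those of MCM4 overlapped. MCM6 was the only subunit on the negative side with -0.10 (limma adjusted p = 0.316), a sign that turned with the GC and length trend removed (0.038). This correction, named for GC and length throughout, also removes the trend on mean level. As a share of the summed FPKM of the 6 subunits, MCM7 made up 16.5% and 16.7% in TF1-BA and 20.7% and 23.4% in TF1-BAR libraries, and MCM6 went from 21.6% and 20.8% to 17.8% and 17.9%. MCM2, MCM3, MCM4 and MCM5 kept shares that differed by less than 2 percentage points between any libraries. The subunits sit in the protein ring in equal numbers, whereas their FPKM here ranged from about 5% of the sum (MCM5) to 33.9% (MCM3). These shares depend on the gene lengths used as well as on the RNA. In TF1-BA replicate 1, MCM5 had 1686 fragments at 12.7 FPKM and MCM3 had 5700 at 86.6 FPKM.

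The origin recognition complex, which marks the sites of loading, was lower in 2 of its 6 subunits. ORC1, the subunit whose level rises and falls over the cell cycle, stood at 20.6 and 21.6 FPKM in TF1-BA and 15.3 and 17.0 FPKM in TF1-BAR cells, without overlap. It fell by 0.37 ± 0.08 on the log2 scale (limma adjusted p = 0.0303). ORC3, a core subunit, was at 34.3 and 31.8 FPKM and then 27.8 and 26.3 FPKM, a change of -0.29 ± 0.07 (limma adjusted p = 0.0442). ORC3 has the highest adjusted p of the 10 calls. Removing the trend on GC content, length and mean level takes its value to -0.09 (limma adjusted p = 0.407), while with TPM its limma adjusted p was 0.0778. ORC2 and ORC6 had log2 fold changes of -0.11 and -0.17, and ORC4 and ORC5 0.05 and 0.03, none passing the test. The summed level of the 6 ORC genes was 93.5 and 91.0 FPKM in TF1-BA and 80.6 and 78.4 FPKM in TF1-BAR cells, with ORC3 alone holding 33.5% to 36.7% of it.

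The loading factors did not move together. CDC6, the ATPase that joins ORC to load the helicase, was at 25.8 and 30.3 FPKM in TF1-BA and 18.0 and 20.7 FPKM in TF1-BAR cells, and both resistant libraries lay below both sensitive ones. It fell by 0.52 ± 0.11 on the log2 scale (limma adjusted p = 0.0304). CDT1, its partner in loading, was at 52.5 and 54.1 FPKM and then 59.8 and 65.0 FPKM, also without overlap but in the other direction, with a log2 fold change of 0.22 (95% interval 0.05 to 0.40) that did not pass the test (limma adjusted p = 0.0688). CDT1 was called higher in 6 of 18 settings, among them TPM (limma adjusted p = 0.0369) and correction for GC content and length (0.0381). GMNN, which encodes geminin, the inhibitor that binds CDT1 after loading, was at 26.2 and 25.4 FPKM and then 24.8 and 22.96 FPKM, with a log2 fold change of -0.11 (limma adjusted p = 0.291).

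**Figure D2:**
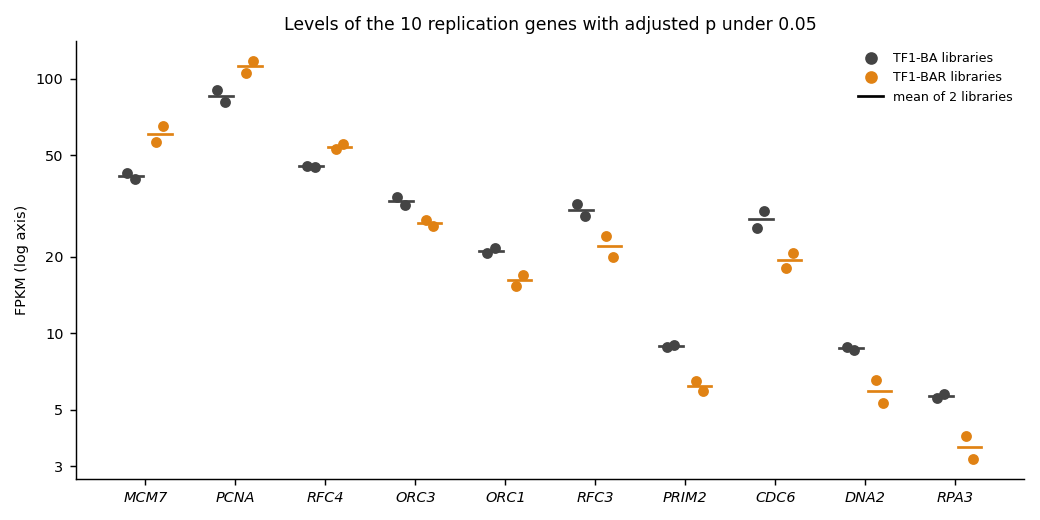
FPKM in each of the 4 libraries, on a log axis, for the 10 replication genes with a limma adjusted p under 0.05, ordered by log2 fold change, with the mean of the 2 libraries of each line as a bar. The libraries of the lines do not overlap in any of the 10 genes, and MCM7, PCNA and RFC4 are higher in TF1-BAR cells while the other 7 are lower.

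None of the 8 genes of helicase activation passed the test. CDC45, which joins the MCM ring to form the active helicase, was at 12.6 and 12.7 FPKM and then 11.8 and 12.3 FPKM, a log2 fold change of -0.07 (95% interval -0.24 to 0.11). CDC7 and its regulatory subunit DBF4, which phosphorylate the loaded MCM ring, had log2 fold changes of -0.13 and -0.12 with overlapping libraries. MCM10, an activation factor, was at 14.0 and 12.4 FPKM and then 12.3 and 11.6 FPKM (log2 fold change -0.13, limma adjusted p = 0.317). The GINS genes, the other partners of the active helicase, were among the lowest members, at 1.75 to 7.16 FPKM. GINS2 was at 4.18 and 3.88 FPKM in TF1-BA and 5.05 and 6.29 FPKM in TF1-BAR cells, the second largest positive log2 fold change of the set at 0.44 ± 0.12, and just missed the threshold (limma adjusted p = 0.058) with 98 to 165 fragments per library, and was called in 4 of 18 settings. GINS1 was at 6.17 and 5.31 FPKM and then 6.6 and 7.16 FPKM (0.24, limma adjusted p = 0.144). GINS3 and GINS4 had log2 fold changes of 0.31 and -0.26, so the 4 genes of this complex did not share a sign, and 21% of the exon bases of GINS4 are shared with a gene on the opposite strand.

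The clamp and its loader held 3 of the 10 calls, in both directions. PCNA, the clamp that holds the polymerases on DNA, had the highest mean FPKM of the members. It was at 90.2 and 80.7 FPKM in TF1-BA and 105 and 118 FPKM in TF1-BAR cells, without overlap. The log2 fold change was 0.38 ± 0.09 (limma adjusted p = 0.0356). The call was lost with replicate number in the model (limma adjusted p = 0.0559) and with no trend of the spread (limma adjusted p = 0.0778). Within the clamp loader, RFC4 was at 45.4 and 45.1 FPKM and then 52.7 and 55.4 FPKM, a rise of 0.25 ± 0.06 (limma adjusted p = 0.0375). RFC3, another small subunit of the same 5-subunit complex, was at 32.2 and 28.9 FPKM and then 24.0 and 19.9 FPKM, and fell by 0.47 ± 0.11 on the log2 scale (limma adjusted p = 0.0397). After correction for GC content and length, RFC3 was at -0.27 (limma adjusted p = 0.145), and with TPM its adjusted p was 0.0515. RFC1, the large subunit that is particular to the PCNA loader, and RFC2 and RFC5 had log2 fold changes of -0.09, -0.03 and -0.02. The sum over the 5 loader genes was 121.5 and 119.8 FPKM in TF1-BA and 119.9 and 118.5 FPKM in TF1-BAR cells, with overlap, and 399 and 394 against 412 and 410 when scaled as TPM, without overlap. Within the sum the RFC3 share went from 26.5% and 24.1% to 20% and 16.8%, and the RFC4 share from 37.4% and 37.6% to 44% and 46.7%.

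Of the 9 polymerase and primase genes, PRIM2 alone passed the test. PRIM2, the large subunit of primase, was at 8.86 and 8.96 FPKM in TF1-BA and 6.5 and 5.95 FPKM in TF1-BAR cells, and fell by 0.49 ± 0.08 on the log2 scale (limma adjusted p = 0.0176). PRIM1, the catalytic primase subunit that works with PRIM2, shares 19.1% of its exon bases with other annotated genes, among them 4.2% with NACA on the same strand. PRIM1 was at 10.7 and 11.0 FPKM and then 11.9 and 12.7 FPKM, a log2 fold change of 0.18 (95% interval -0.01 to 0.37). POLA1, the catalytic subunit of polymerase alpha, was at 0.19 and its partner POLA2 at -0.08 on the same scale. PRIM2 made up 30.5% and 29.7% of the summed FPKM of these 4 genes in TF1-BA and 22.5% and 20.4% in TF1-BAR libraries. POLE, the catalytic subunit of polymerase epsilon, was at 2.57 and 2.67 FPKM and then 3.12 and 3.51 FPKM, without overlap. Its log2 fold change was 0.29 (limma adjusted p = 0.0982). POLD2, the second subunit of polymerase delta, had a log2 fold change of 0.21 (limma adjusted p = 0.097), while POLD1, POLD3 and POLE2 had -0.03, -0.03 and -0.08 with overlapping libraries.

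**Figure D3:**
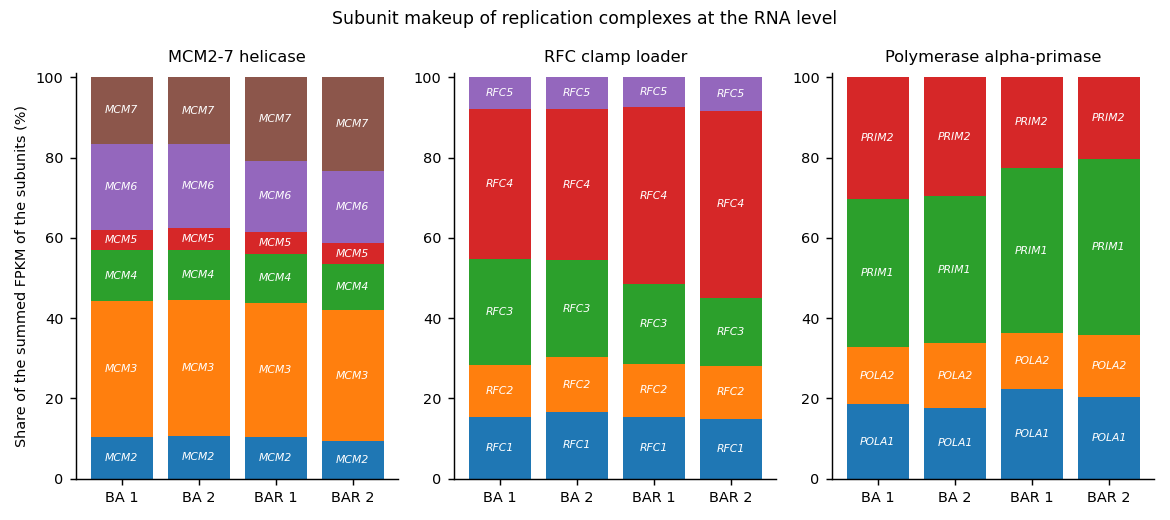
Share of each subunit in the summed FPKM of 3 replication complexes, in percent, for the 2 TF1-BA (BA) and 2 TF1-BAR (BAR) libraries. The MCM7 share is 20.7% and 23.4% in resistant libraries against 16.5% and 16.7%, the RFC4 band widens as the RFC3 band narrows, and the PRIM2 band narrows from 30.5% and 29.7% to 22.5% and 20.4%.

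The genes that finish the lagging strand and protect the fork gave 2 calls, both lower. DNA2, the nuclease and helicase that trims long flaps, was at 8.87 and 8.58 FPKM in TF1-BA and 6.54 and 5.31 FPKM in TF1-BAR cells, and fell by 0.53 ± 0.12 on the log2 scale (limma adjusted p = 0.0312). After correction for GC content and length, DNA2 was at -0.34 (limma adjusted p = 0.0902). FEN1, the main flap nuclease, and LIG1, the ligase that seals the fragments, had log2 fold changes of -0.13 and 0.09 and did not pass the test. RPA3, the smallest subunit of the single-strand binding protein, was at 5.56 and 5.76 FPKM and then 3.97 and 3.21 FPKM, with 288 to 324 fragments per library in sensitive and 167 to 202 in resistant cells. Its log2 fold change of -0.60 ± 0.12 (limma adjusted p = 0.025) was the largest fall among the members. RPA3 shares 3.7% of its exon bases with UMAD1 on the opposite strand, which was at 1.86 and 1.74 FPKM and then 1.4 and 1.06 FPKM. RPA1 and RPA2, the other subunits, had log2 fold changes of -0.03 and -0.12, and RPA2 alone held 70.7% to 72.9% of the summed RPA FPKM. That share depends on the gene lengths used, since in TF1-BA replicate 1 RPA2 had 2628 fragments and RPA1 2262. The fork protection genes CLSPN and TIMELESS were at -0.07 and 0.19 on the log2 scale, neither passing the test.

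The fits were also repeated with each library left out, which leaves a line with 1 library that is assumed to vary like the other line. Without TF1-BA replicate 1 the 10 members had limma adjusted p from 0.0798 to 0.273, and without TF1-BA replicate 2 from 0.11 to 0.23, so that 0 of the 10 were called, at 3.4% and 3.31% of all genes called. The log2 fold changes kept their direction, with MCM7 at 0.58 and 0.51, PRIM2 at -0.49 and -0.48 and PCNA at 0.46 and 0.30. Without TF1-BAR replicate 1 or replicate 2 all 10 kept their direction too. In that order, MCM7 was at 0.65 and 0.43, PCNA at 0.46 and 0.30 and ORC1 at -0.30 and -0.45. With no filter on low values all 10 lost the call (limma adjusted p from 0.0518 to 0.116), in a fit where 4.69% of 30853 genes were called. The log2 fold changes of the members in it were those of the main fit. With 2 libraries against 2, an exact two-sided permutation test of a single gene could not go below p = 0.333.

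Whole chromosomes differed in their median between the lines, and 4 members lie on those chromosomes. Members left out, the median log2 fold change was -0.35 over 591 genes of chromosome 10 and 0.39 over 438 genes of chromosome 20, and between -0.01 and 0.12 on each of the other chromosomes. DNA2 (-0.53) lay below the median of chromosome 10 and MCM10 (-0.13) above it. PCNA (0.38) lay at the median of chromosome 20 and GINS1 (0.24) below it. PCNA shares its upstream region with CDS2, whose start lies 253 bases away in the opposite direction and whose log2 fold change was 0.90 (limma adjusted p = 0.0114), and GINS1 lies head to head with ABHD12, which had 0.26 (limma adjusted p = 0.0982). Of the 42 members on other chromosomes, 2 were called higher and 6 lower, with a median log2 fold change of -0.03. The part of these chromosome shifts in the levels of PCNA and DNA2 was not tested. ORC1, on chromosome 1, lies head to head with PRPF38A, which had a log2 fold change of -0.21 (limma adjusted p = 0.0832) beside -0.37 for ORC1. ORC3 lies head to head with RARS2, 39 bases away, which had -0.01 (limma adjusted p = 0.891) beside -0.29 for ORC3.

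**Figure D4:**
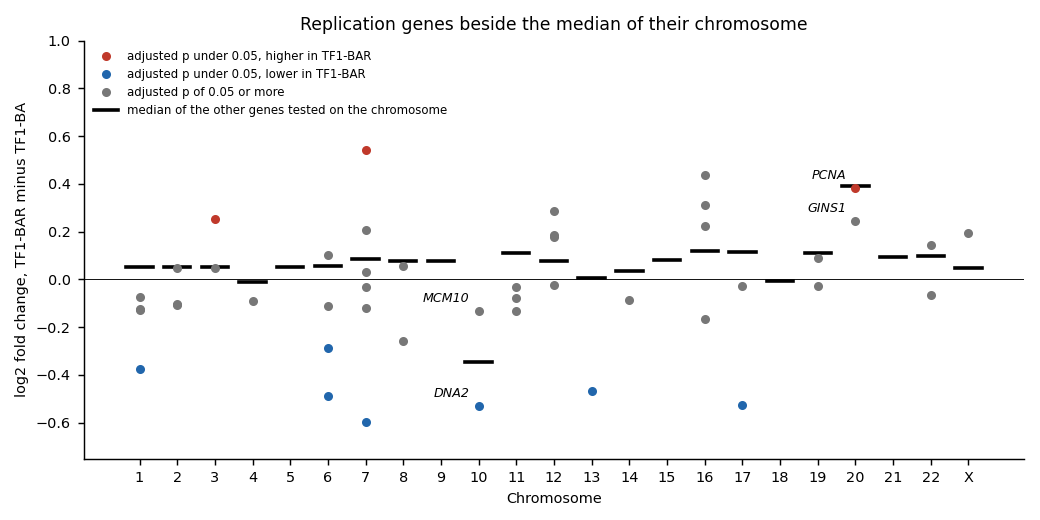
Log2 fold change (TF1-BAR minus TF1-BA) of each of the 46 replication genes at its chromosome, beside the median of the other genes tested on that chromosome (black bar). Only the bars of chromosome 10 (-0.35) and chromosome 20 (0.39) stand more than 0.2 from the median of all genes, PCNA lies on the bar of chromosome 20, and DNA2 lies below that of chromosome 10.

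Genes around the replication machinery were counted from lists grouped by function, which were chosen with earlier results of these data known. Among 25 further replication factors, 2 were higher and 2 lower by limma's adjusted p, or 16% called against 26.9% of all genes tested. MCM8, a helicase relative of the MCM2-7 subunits encoded on chromosome 20, rose by 0.55 ± 0.09 on the log2 scale, and CHTF18, the large subunit of an alternative clamp loader, rose by 0.38 ± 0.08. RNASEH2A, which removes RNA from DNA, and MCMBP, a chaperone of the MCM proteins encoded on chromosome 10, fell by 0.32 ± 0.06 and 0.28 ± 0.06. TOP1, the topoisomerase that relaxes DNA ahead of forks, is on chromosome 20 and had a log2 fold change of 0.07 with overlapping libraries.

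The E2F factors and their repressors, the regulators named above, had 7 genes higher and 0 lower of 16 tested (43.8% called, against 16.3% called higher and 26.9% called in either direction over all genes), and 0 genes with both thresholds. E2F1, the activator studied most for entry into S phase and encoded on chromosome 20, was at 11.9 and 12.1 FPKM in TF1-BA and 19.6 and 22.9 FPKM in TF1-BAR cells (0.79 ± 0.09, limma adjusted p = 0.00891). E2F2 went from 2.75 and 3.27 FPKM to 4.62 and 6.03 FPKM, and TFDP2, a dimerization partner, from 5.13 and 5.33 FPKM to 7.51 and 8.63 FPKM. E2F3, E2F4, E2F5 and E2F6 rose by 0.33 to 0.52 on the log2 scale. RB1, a repressor of E2F activators, had -0.21 (limma adjusted p = 0.129) and E2F8 -0.09. RBL1 and RBL2 of the same list had 0.20 and 0.12 (limma adjusted p = 0.172 and 0.265). Of the 16 genes tested, 11 had a positive and 5 a negative log2 fold change. E2F7 was under 0.1 FPKM in all libraries and was not tested. With no filter on low values, 2 of the list were called higher, in a fit that called 4.69% of all genes. Leaving out TF1-BA replicate 1 or replicate 2 left 0 of the list called higher, in fits with a single TF1-BA library that called 3.4% and 3.31% of all genes.

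Regulators of entry into S phase had 3 genes lower and 0 higher of 14 tested, or 21.4% called, against 10.5% called lower and 26.9% called in either direction over all genes. CCNE2, cyclin E2, was at 2.02 and 2.53 FPKM and then 1.4 and 1.09 FPKM (-0.67, limma adjusted p = 0.0399), and CDKN1B, which encodes the CDK inhibitor p27, went from 19.8 and 20.04 FPKM to 14.5 and 14.4 FPKM (-0.45, limma adjusted p = 0.0122). The list thus holds a promoter and an inhibitor of CDK2 activity among its falls. FBXO5, an inhibitor of the anaphase-promoting complex, fell by 0.28 on the log2 scale, and CCNE1 had -0.33 (limma adjusted p = 0.0587). Of 9 genes of deoxynucleotide supply, 22.2% were called. RRM2 and RRM1, the subunits of ribonucleotide reductase, fell by 0.80 ± 0.10 and 0.33 ± 0.07 on the log2 scale. RRM2 was at 29.1 and 26.1 FPKM in TF1-BA and 16.8 and 14.6 FPKM in TF1-BAR cells. Of 8 genes of chromatin assembly at forks, 37.5% were called. CHAF1A rose by 0.27, and ASF1A and UHRF1 fell by 0.62 and 0.38 on the log2 scale.

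Of the 22 genes of the G2 and mitosis list, 14 were lower and 0 higher (63.6% called, against 10.5% called lower and 26.9% in either direction over all genes), 20 had both resistant libraries below both sensitive ones (28.4% of all genes did), and the median log2 fold change was -0.51 against -0.03 for the replication members. CDK1, the mitotic kinase, passed both thresholds, from 41.4 and 35.7 FPKM to 15.0 and 12.0 FPKM (-1.49 ± 0.14, limma adjusted p = 0.00595). CCNB2 was at 64.9 and 62.7 FPKM and then 33.1 and 31.1 FPKM, and MKI67, which encodes the proliferation marker Ki-67, went from 33.7 and 33.9 FPKM to 17.4 and 19.1 FPKM. CDK1, MKI67 and KIF11 are on chromosome 10, whose median was also lower. TPX2, a spindle assembly factor on chromosome 20, whose median was higher, fell by 0.29 on the log2 scale, and AURKA and UBE2C on the same chromosome had -0.14 and -0.02 and did not pass the test. In the fits with a single TF1-BA library, 3 and 4 of the list were called lower. With no filter on low values, 7 of the list were called lower, in a fit that called 4.69% of all genes. The difference between the lists was not tested.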

How the data were processed

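RNA of 2 TF1-BA and 2 TF1-BAR libraries was sequenced by the authors as paired-end reads, mapped to GRCh38 with TopHat2 2.0.13 and summarised with Cufflinks and Cuffdiff 2.2.0, as listed in the submitters' processing notes. The values they deposited are FPKM per gene and library, not log transformed, and the annotation release is not given in the sources used here. Groups and replicate numbers came from the labels. The authors tested expression with DESeq2, which needs counts, so the FPKM were tested here with limma 3.58.1 in R 4.3.3, with a trend of the spread on the mean, on log2(FPKM + 0.5) over genes with a mean of at least 0.5 FPKM, with Benjamini-Hochberg adjustment over all 15519 genes. The test was tried on simulated data.

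The 46 members and the lists were chosen with earlier results of these data known. All members are named by role. Full values were set for the 4 highest and 4 lowest members with an adjusted p under 0.05 (3 were higher), for PCNA, MCM2, CDC6, CDT1, GMNN, CDC45, ORC1, POLE and for members on chromosomes whose median lay at least 0.2 from that of all genes. Values of ORC3, RFC3, GINS2 and PRIM1 were added after they were seen. In other lists, genes past both thresholds, at most 3 with the largest change, and E2F1, CCNE1, CCNE2, MKI67 and TOP1 were named, and the other genes named there were added after their values were seen. The remaining genes of these lists entered only the counts and medians, and 1 gene was left out of them and is not reported here. Fragments were recovered as whole numbers for all 30853 genes above 0, within 0.001 of a fragment, and cover counting error only. An annotated length was used for 14220 of these genes. For the other 16633 the length was itself chosen to give whole numbers, so the closeness there is no check. Same-numbered libraries did not deviate together (r = 0.0646).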

Additional observations from a re-analysis of the deposited data

How the results depend on the processing

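Under 17 alternatives, 0 members passed both thresholds and no called member changed direction. The main counts were 3 members higher and 7 lower. They became 0 and 0 when low genes were not filtered, 1 and 2 when the spread had no trend, 5 and 5 with rescaling to TPM, 6 higher with voom on recovered fragments, 5 and 4 with the trend on GC content, length and mean level removed, and 3 lower when that removal went with the replicate block, where PRIM2 was at -0.33 (limma adjusted p = 0.0586). In that order, these fits called 4.69%, 19.9%, 29.2%, 37.8%, 26.2% and 24.4% of all genes, against 26.9% in the main fit. With the replicate block alone, which called 25.6% of all genes, 2 members were higher and 7 lower, and PCNA missed the threshold (limma adjusted p = 0.0559). Leaving out a replicate gave 0 to 5 members higher and 0 to 4 lower. The cause of these changes was not tested, beyond the fewer samples and the many low genes that they bring in by construction.

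The median log2 fold change of the members was 0.033 with the GC and length trend removed, with and without the block, and 0.033 with TPM, against -0.031. It stayed below the median of all genes in every alternative, by -0.05 to -0.11. Several uncalled members near 0 changed sign. With the GC and length trend removed, in both fits, the log2 fold changes were 0.038 for MCM6, 0.016 for ORC2, 0.043 for GMNN, 0.013 for CDC7, 0.061 for DBF4, 0.018 for RFC1, 0.033 for RFC5, 0.0084 for POLD1, 0.021 for POLD3, 0.066 for POLE2 and 0.0032 for RPA1. With TPM they were 0.033 for RFC2, 0.042 for RFC5, 0.041 for POLD1, 0.034 for POLD3 and 0.040 for RPA1, and with quantile normalization -0.0076 for ORC4 and -0.014 for ORC5. Leaving out replicates gave ranges across 0 of -0.018 to 0.12 for MCM2, -0.0021 to 0.067 for ORC5, -0.27 to 0.030 for DBF4, -0.088 to 0.043 for RFC5, -0.18 to 0.024 for POLA2, -0.11 to 0.051 for POLD3, -0.19 to 0.021 for POLE2, -0.071 to 0.017 for RPA1 and -0.16 to 0.010 for CLSPN. The members had 98 to 5700 fragments per library, and counting limits the precision most for the lowest of them.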
